A study of Homo sapiens with 10 samples.

Results

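The genes described here are 10 genes of the epithelial cytoskeleton and its junctions: the keratins KRT7, KRT8, KRT18, KRT19 and KRT80, the desmosome genes JUP, PKP3 and DSP, the transcription factor gene ELF3 and the tight junction gene CLDN1. They were picked by name, with earlier results of these data known, out of 58735 genes listed in both deposited count tables. Each was found once in either table. RNA came from TPC-1, an established cell line from a human papillary thyroid carcinoma, transfected with an empty vector (EV, 5 libraries) or with a vector that overexpresses the long non-coding RNA PTCSC3-AS1 (OE, 5 libraries). The first set means replicates 1 to 3 of both groups, deposited in 1 table, and the second set means replicates 4 and 5, deposited in a further table. Columns of OE libraries carry the heading EST_OE in the former and OE in the latter. No source used here says whether the vector was the same, what else sets the tables apart or whether replicates were separate cultures, so p-values measure only how far these libraries vary, which can be technical. The promoter of the vector and the time after transfection are not given there either. PTCSC3-AS1 was not measured here, so the OE labels were not checked against it. All groups are 1 cell line, and in such bulk RNA fewer cells that express a gene and less RNA per cell cannot be told apart.

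Keratins form intermediate filaments from pairs of a type I and a type II protein, and KRT8 with KRT18 is the pair of simple epithelia such as the thyroid follicle. Desmosomes fasten these filaments to the cell border: desmoplakin (DSP) holds the filament, while plakoglobin (JUP) and plakophilins such as PKP3 tie it to the desmosomal cadherins. Claudins such as CLDN1 seal the tight junction, and ELF3 is an ETS family transcription factor found mainly in epithelia.

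The libraries held 15761474 to 18066559 counts, and 3 counts, the limit that a count of 0 allows, were worth 0.167 to 0.194 CPM (counts scaled to the TMM-adjusted library size, counting error only). EV replicate 2 was the outlying library on the second principal component of the 1000 most variable genes, with a score of -22.17 where the others scored -8.37 to 10.8. The share of counts from mitochondrially encoded genes was 4.94% ± 0.238 (SD, n = 3) in EV and 4.39% ± 0.106 (SD, n = 3) in OE of the first set. In the second set it was 4.63% ± 0.254 (SD, n = 2) and 4.17% ± 0.0995 (SD, n = 2). Of the 8 thyroid markers, PAX8 was at 56.0 RPKM (CPM per kilobase of the deposited gene length), FOXE1 at 6.79 and HHEX at 5.75, while NKX2-1, TSHR and SLC5A5 had 0 counts in all 10 libraries. The leukocyte gene CD3E, the fibroblast genes COL1A2, COL3A1 and DCN and the endothelial gene KDR also had 0 counts. Other genes of these marker lists had counts in all 10 libraries. Among them were PDGFRB (0.586 RPKM) and COL1A1 (0.333) of fibroblasts, CD14 (0.432) and CSF1R (0.220) of leukocytes, and PECAM1 (0.0974) of endothelium.

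In hg38, 4 of the genes lie in the keratin region of chromosome 12: KRT80 (52168996 to 52192000, minus strand), KRT7 (52232520 to 52252186, plus), KRT8 (52897187 to 52949954, minus) and KRT18 (52948871 to 52952901, plus). KRT19 (41523617 to 41528308, minus) and JUP (41754604 to 41786931, minus) lie on chromosome 17. PKP3 is on chromosome 11 (392614 to 404908, plus), DSP on chromosome 6 (7541575 to 7586717, plus), ELF3 on chromosome 1 (202007945 to 202017188, plus) and CLDN1 on chromosome 3 (190305701 to 190322475, minus). The spans of KRT8 and KRT18 overlap where each begins, so the genes run away from each other. In GENCODE 29, 525 bases are exonic in both, which is 7.63% of the exonic bases of KRT8 and 16.3% of those of KRT18. KRT7 shares 2887 bases of its span with the hair keratin gene KRT86 on the same strand. It also shares 1721 bases with the pseudogene KRT87P on the opposite strand, which held 10 to 118 counts. ELF3 shares 2519 bases with its antisense gene ELF3-AS1. No source used here says whether the counting used strand, so reads of the overlaps on opposite strands are uncertain. Reads of the KRT7 and KRT86 overlap are uncertain either way, since both genes lie on the same strand. The bases given for KRT7 and ELF3 are shared spans, and their shared exonic bases were not computed. KRT8 also has 50 pseudogenes in the tables, which together held 196 to 298 counts per library against 1346 to 2757 for KRT8 itself.

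Of 10 genes, 5 were matched by symbol to a RefSeq table of promoters (GRCh38.p14): ELF3, CLDN1, DSP, KRT8 and JUP. The 250 bases before the start site are shown for CLDN1, the member with the lowest adjusted p between the sets, and for KRT8, the member with the lowest adjusted p for OE once EV replicate 2 was left out. The CLDN1 window is chr3:190322447-190322696 and the KRT8 window chr12:52926470-52926719, both on the minus strand and printed 5′ to 3′. Capitals mark every match, on either strand, to 6 motifs: the GC box (GGGCGG), the TATA box (TATAAA), the CCAAT box (CCAAT), the AP-1 site (TGANTCA), the E-box CAGGTG read by SNAI and ZEB repressors, and the ETS core GGAA, the family of ELF3.
CLDN1: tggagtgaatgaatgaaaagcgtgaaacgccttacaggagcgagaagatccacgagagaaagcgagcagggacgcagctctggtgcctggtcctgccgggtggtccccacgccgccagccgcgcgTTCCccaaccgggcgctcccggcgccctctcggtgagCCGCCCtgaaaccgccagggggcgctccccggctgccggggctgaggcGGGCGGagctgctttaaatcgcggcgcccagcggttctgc
KRT8: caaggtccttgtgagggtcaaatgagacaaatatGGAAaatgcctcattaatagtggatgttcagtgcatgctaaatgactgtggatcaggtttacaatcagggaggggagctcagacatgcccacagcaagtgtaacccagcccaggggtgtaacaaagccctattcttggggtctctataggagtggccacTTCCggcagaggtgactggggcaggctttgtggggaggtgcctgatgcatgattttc
The CLDN1 window had a GC content of 68.8%, with GC boxes whose first base lies at -88 and -40 from the RefSeq start site and an ETS core at -125. The nearest CLDN1 start in GENCODE 29 lies 29 bases from that site, and 29 bases of the window are exonic there. The KRT8 window had a GC content of 50.4%, no GC box, and ETS cores at -216 and -57. It precedes 1 of several annotated starts, since 1 of the 17 KRT8 transcripts of GENCODE 29 begins within 50 bases of it. A GC box was found in 42.6% of all 35116 promoter windows and an ETS core in 92.7%, so an ETS match is what most promoters hold. Neither window held a TATA box, a CCAAT box, an AP-1 site or the CAGGTG E-box, which were found in 10.7%, 32%, 6.57% and 17.5% of all windows. Such a match is a run of letters and not a measured binding site.

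Per length of the gene, the simple epithelial partner KRT18 was the highest of the 10, at 83.7 ± 9.33 RPKM (SD, n = 10). CLDN1 followed at 37.5 ± 13.1, then KRT8 at 16.1 ± 4.01, KRT80, a type II keratin of several epithelia, at 13.0 ± 5.04, and PKP3 at 11.2 ± 3.79. JUP was at 7.10 ± 0.853 RPKM, KRT7, a type II keratin of ducts and glands, at 0.873 ± 0.452, and ELF3 at 0.704 ± 0.180. KRT18 was above CLDN1, and CLDN1 above KRT8, in 10 of 10 libraries, as were PKP3 above JUP and JUP above KRT7. KRT8 was above KRT80 in 9 of 10 libraries and KRT80 above PKP3 in 9 of 10, with ranges that overlap, and KRT7 was above ELF3 in 7 of 10. The deposited length equals the union of all exons in GENCODE 29, 6881 bases over 17 transcripts for KRT8. For CLDN1 it is 3663 bases over 2 transcripts. The order of genes depends on this length, which is the same divisor in every library. Not divided by length, mean CPM was 111 for KRT8, 137 for CLDN1 and 269 for KRT18. Among all tested genes KRT18 ranked above 96.6% in mean RPKM, CLDN1 above 91.2%, JUP above 59.0% and ELF3 above 15.4%.

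**Figure D1:**
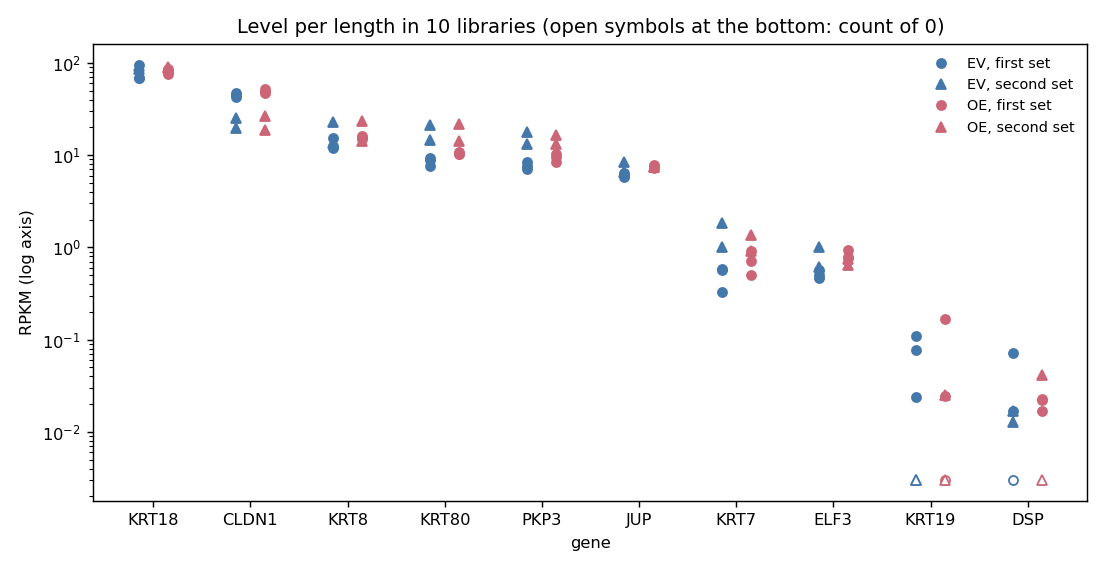
RPKM (log axis) of the 10 genes in the 10 libraries, EV in blue and OE in red, circles for the first set and triangles for the second, with counts of 0 as open symbols at the bottom. KRT18 (69.0 to 95.8 RPKM) lies at the top, and KRT19 and DSP lie far under the other 8.

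The type I keratin KRT19, widely used as a stain for papillary thyroid carcinoma, and DSP were close to undetected. KRT19 had 0 to 7 counts and DSP 0 to 12 counts per library, with a count above 0 in 6 and 8 of the 10 libraries. Their means of 0.0428 and 0.0221 RPKM did not differ beyond their spread, and both failed the filter on low counts, so 8 of the 10 genes were tested. The CPM of KRT19 was at most 0.389 (OE replicate 2) and that of DSP at most 0.727 (EV replicate 3), so no OE change of either could be read at this depth. TPC-1 therefore held RNA of KRT8, KRT18, JUP and PKP3 with hardly any of DSP, the protein that joins keratin to the desmosome. E-cadherin (CDH1) and EPCAM, the usual epithelial surface markers, were at 0.00379 and 0.0561 RPKM and failed the filter too, while vimentin (VIM), the mesenchymal filament, was at 257 RPKM.

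The first comparison asks whether OE changed these genes over both sets, with the set as a term. By edgeR's quasi-likelihood test with Benjamini-Hochberg adjustment, 0 of the 8 tested genes passed an adjusted p of 0.05, and so did 0 of 14217 genes (0%). At an unadjusted p of 0.05 the counts were 0 of 8 and 812 of 14217 (5.71%), and DESeq2 also called 0 genes. All 8 estimates lay above 0, beside 6988 of 14217 genes. The genes were chosen with earlier results of these data known, so this shared direction is no test of the list. The median log2 change of the 8 was 0.16, against -0.0028 over all tested genes. This median was 0.08 with offsets for GC content and gene length. KRT18 had 0.03 (SE 0.09), CLDN1 0.07 (SE 0.10), PKP3 0.14 (SE 0.11), KRT7 0.15 (SE 0.27), KRT8 0.16 (SE 0.15) and KRT80 0.16 (SE 0.13), with 95% intervals that contain 0. The largest estimates of the 8 were JUP at 0.19 (SE 0.09, adjusted p = 0.847 by edgeR) and ELF3 at 0.32 (SE 0.20, adjusted p = 0.867). Leaving out any single library called 0 of the 8. The median then ran from 0.09 (without EV replicate 5 or OE replicate 4) to 0.24 (without OE replicate 5) and 0.27 (without EV replicate 4), and it was 0.16 without EV replicate 2.

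**Figure D2:**
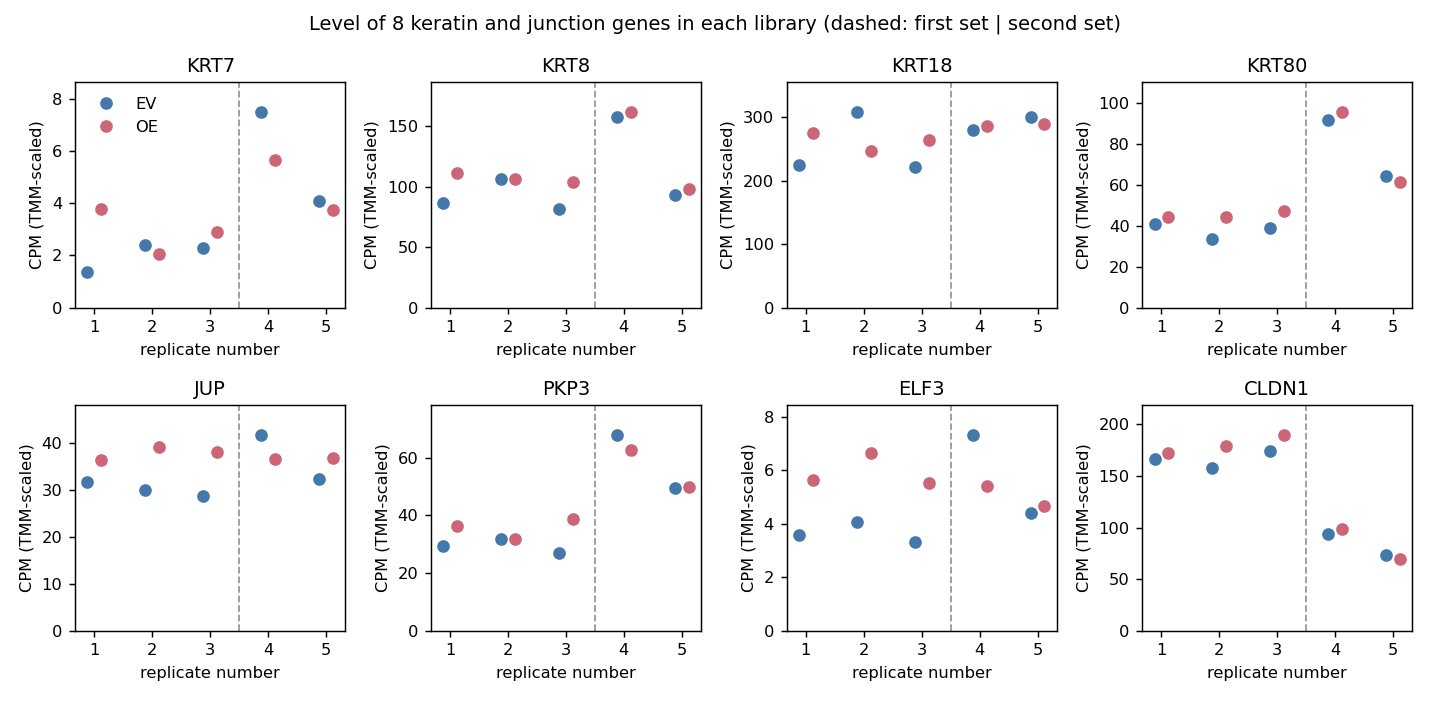
TMM-scaled CPM of the 8 tested genes in each library by replicate number, EV in blue and OE in red, with a dashed line between the first and the second set. In the first set the OE points of JUP and ELF3 lie above all EV points, and CLDN1 lies lower in the second set than in the first.

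In the first set alone, 0 of 8 genes passed, beside 5 of 14340 genes (0.0349%), all 5 of them lower in OE. The 4 genes KRT80, JUP, PKP3 and ELF3 had every OE library above every EV library, a pattern that 9.14% of all tested genes showed. No member had every OE library below, as 7.85% of genes had. The same 4 had an unadjusted p under 0.05, which 8.84% of genes had. The median log2 change of the 8 was 0.26, and 0.17 with GC and length offsets.

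ELF3, the transcription factor, had 3.60, 4.07 and 3.33 CPM in EV replicates 1 to 3 and 5.64, 6.66 and 5.54 CPM in OE replicates 1 to 3. The lowest OE library stood above the highest EV library. Its log2 change was 0.69 (SE 0.19, n = 3 per group), 1.61-fold higher, with an edgeR adjusted p of 0.393 that misses the threshold. ELF3 rests on few reads, 55 to 128 counts per library, and its antisense neighbour ELF3-AS1 held 28 to 70.

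Plakoglobin, which serves both desmosomes and adherens junctions, showed the same separation at a smaller size. JUP had 31.7, 30.0 and 28.6 CPM in EV and 36.2, 39.0 and 38.0 CPM in OE. All 3 OE libraries were above all 3 EV libraries, and the log2 change was 0.32 (SE 0.10, n = 3 per group; edgeR, adjusted p = 0.442). For PKP3 the levels were 29.3, 31.9 and 27.1 CPM in EV against 36.4, 32.0 and 38.8 CPM in OE. Here the groups nearly touch, since EV replicate 2 and OE replicate 2 differ by little, and the log2 change was 0.27 (SE 0.11; edgeR, adjusted p = 0.541).

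Among the keratins, KRT80 had 41.0, 33.6 and 39.0 CPM in EV and 44.5, 44.6 and 47.5 CPM in OE of the first set. The groups did not overlap, and its log2 change was 0.25 (SE 0.11; edgeR, adjusted p = 0.541). KRT8 had 86.4, 106 and 81.5 CPM in EV and 111, 106 and 104 CPM in OE. EV replicate 2 lay within the OE range while EV replicates 1 and 3 lay under it, and the log2 change was 0.22 (SE 0.11; edgeR, adjusted p = 0.601). Its partner KRT18 had 224, 308 and 222 CPM in EV and 275, 247 and 264 CPM in OE. EV replicate 2 was the highest of all 6 libraries and the other EV libraries were the lowest, which gave a log2 change of 0.05 (SE 0.13). KRT7 had 1.35, 2.39 and 2.30 CPM in EV and 3.76, 2.05 and 2.91 CPM in OE, overlapping groups from 24 to 66 counts, with a log2 change of 0.53 (SE 0.33). CLDN1 had 166, 158 and 175 CPM in EV and 172, 179 and 190 CPM in OE, which overlap, and its log2 change was 0.11 (SE 0.09).

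Because EV replicate 2 stood apart, the first set was also fitted without it, 2 EV against 3 OE libraries. Then 5 of the 8 genes rose in OE and 0 fell, beside 6.07% of 14769 genes that rose and 4.62% that fell (10.7% in all). The genes were chosen with earlier results of these data known, so these shares are no test of the list. KRT8 had a log2 change of 0.34 (SE 0.07, adjusted p = 0.00267 by edgeR), a 1.27-fold rise. KRT18 had 0.23 (SE 0.06, adjusted p = 0.0221), JUP 0.32 (SE 0.09, adjusted p = 0.0284), PKP3 0.34 (SE 0.10, adjusted p = 0.0300) and ELF3 0.77 (SE 0.22, adjusted p = 0.0228). KRT7 at 0.67 (adjusted p = 0.227), KRT80 at 0.18 (adjusted p = 0.185) and CLDN1 at 0.08 did not pass. Leaving out any of the other 5 libraries of the first set called 0 of the 8 genes.

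GC content stands beside these calls. The exons of the 5 genes had 55.7% (KRT18) to 66.8% (PKP3) GC against a median of 48.0% over all tested genes, while the 3 genes with no call had 62.9% (KRT7), 56.8% (KRT80) and 41.5% (CLDN1). Called and uncalled genes thus overlapped in GC content. With GC and length offsets in the fit without EV replicate 2, KRT8 alone of the 8 passed (log2 change 0.27, edgeR adjusted p = 0.00749) and ELF3 had 0.71 (adjusted p = 0.0524). JUP then had 0.14, KRT18 0.10 and PKP3 0.06. The fibroblast list of 7 genes summed to 0.958 to 1.06 RPKM in EV and 1.24 to 1.30 RPKM in OE of the first set, with COL1A2, COL3A1 and DCN at 0. The 8 thyroid markers summed to 59.0 to 66.2 RPKM in EV and 72.8 to 78.0 RPKM in OE, with NKX2-1, TSHR and SLC5A5 at 0. The part of these, and of the lower mitochondrial share in OE, in the keratin and junction values was not tested.

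**Figure D3:**
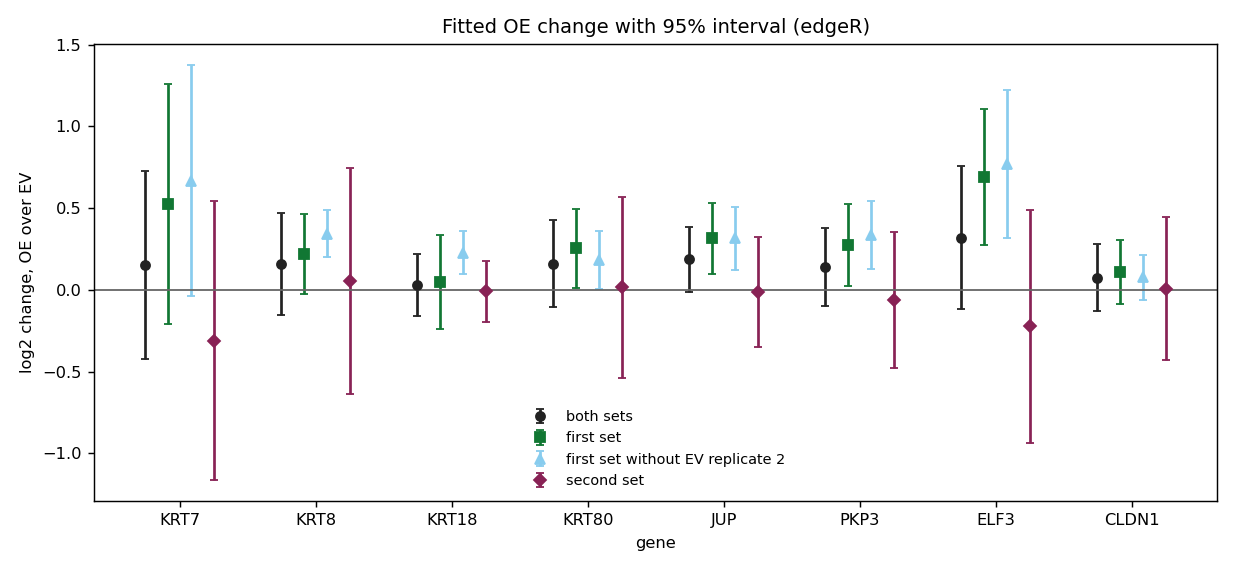
Fitted log2 change of OE over EV (edgeR) with its 95% interval for the 8 tested genes, over both sets, in the first set, in the first set without EV replicate 2 and in the second set. The first set estimates lie above 0, from 0.05 (KRT18) to 0.69 (ELF3), and the second set estimates lie from -0.31 (KRT7) to 0.06 (KRT8).

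In the second set, 2 libraries per group, 0 of 8 genes passed and 0 of 14419 did (0%), with 158 at an unadjusted p under 0.05 (1.10%) and 0 by DESeq2. No member had OE and EV libraries apart in either direction, where 12.3% of genes had OE above EV and 12.7% OE below. ELF3 had 7.33 and 4.41 CPM in EV against 5.4 and 4.65 CPM in OE, a log2 change of -0.22 (SE 0.30). EV replicate 4 was the highest of the 4 and EV replicate 5 the lowest, so the OE libraries fell between them. JUP had 41.7 and 32.4 CPM in EV and 36.6 and 36.7 CPM in OE, with the OE libraries again between the EV ones and a log2 change of -0.01 (SE 0.14). PKP3 had 68.0 and 49.6 CPM in EV and 62.9 and 49.7 CPM in OE (log2 change -0.06, SE 0.17). The remaining estimates were 0.06 (SE 0.29) for KRT8, 0.02 (SE 0.23) for KRT80, 0.01 (SE 0.18) for CLDN1, -0.01 (SE 0.08) for KRT18 and -0.31 (SE 0.36) for KRT7. Their median was -0.01. Signs in this set turn when single libraries are left out.

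The difference of the OE change between the sets was tested as an interaction, second set less first set. By edgeR 0 of 8 genes passed, beside 1 of 14217 (0.00703%), and 1 of the 8 had an unadjusted p under 0.05 against 3.49% of all genes. ELF3 had the largest difference of the 8, -0.93 (SE 0.34, 95% interval -1.67 to -0.18, adjusted p = 0.9998 by edgeR). KRT7 had -0.85 (SE 0.51), PKP3 -0.35 (SE 0.22) and JUP -0.34 (SE 0.17), with intervals that contain 0. A larger OE change of these genes in the first set than in the second was thus not shown over all genes.

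Between libraries with the same replicate number, all 8 genes lay above 0 in numbers 1 and 3, 6 of 8 in number 2, and 4 of 8 in numbers 4 and 5. The median log2 ratio of the 8 was 0.31, 0.09 and 0.33 in numbers 1 to 3, and -0.04 and -0.02 in numbers 4 and 5, where 49.6% to 51.2% of all tested genes lay above 0 in each number. ELF3 had 0.63, 0.70 and 0.71 in the first set, then -0.43 and 0.08. JUP had 0.19, 0.38 and 0.40, then -0.19 and 0.18. KRT18 turned within the first set, with 0.30 and 0.25 in numbers 1 and 3 and -0.32 in number 2, where EV replicate 2 is the EV library. For the second set, the authors' deposited table gives ELF3 a log2 fold change of -0.43 in number 4 and 0.09 in number 5, and JUP -0.18 and 0.19. Each of these deposited comparisons sets 1 OE library against 1 EV library, so its p-values are not read here.

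**Figure D4:**
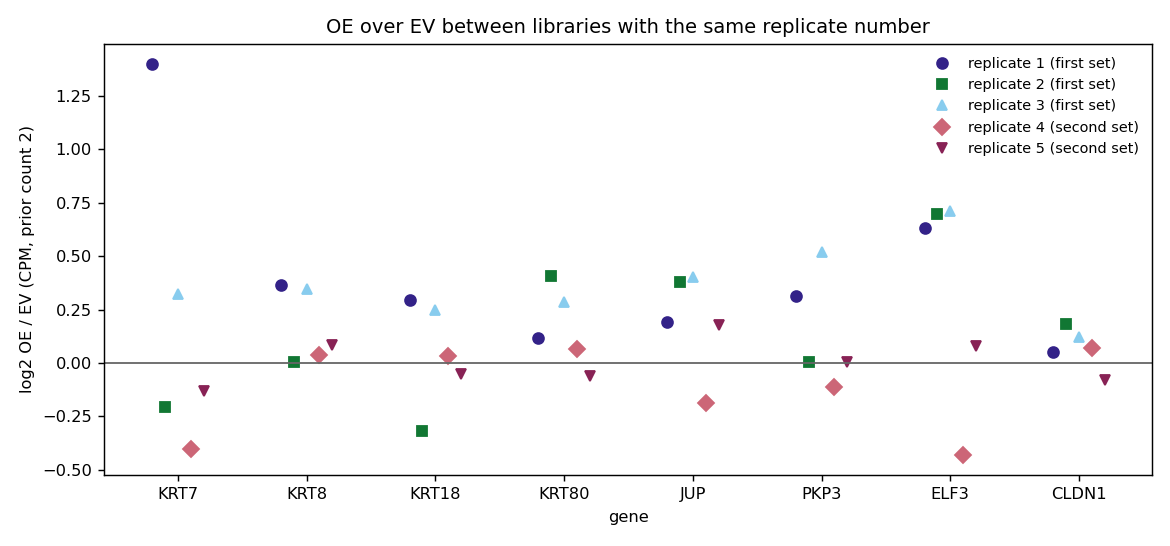
Log2 ratio of OE over EV (CPM, prior count 2) between libraries with the same replicate number, 1 symbol per number, for the 8 tested genes. ELF3 and JUP lie above 0 in numbers 1 to 3, and ELF3 lies at -0.43 and 0.08 in numbers 4 and 5.

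More of these genes passed the test between the sets than between OE and EV. In the fit over all 10 libraries, 3 of 8 genes were higher and 1 was lower in the second set than in the first, beside 9.27% and 9.17% of all tested genes (18.4%, 2621 of 14217). KRT80, PKP3 and KRT7 were higher, and CLDN1 was lower. An unadjusted p under 0.05 was found for 5 of the 8 and for 32.9% of all genes.

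CLDN1 had 158 to 190 CPM in the 6 libraries of the first set (mean 173 ± 11, SD, n = 6) and 93.6, 73.1, 98.2 and 69.2 CPM in EV 4, EV 5, OE 4 and OE 5. Every second set library was under every first set library, as for 7.88% of all genes. The log2 change was -1.05 (SE 0.10, edgeR adjusted p = 2.73e-05), a 2.07-fold lower level. In the other direction, KRT80 had 33.6 to 47.5 CPM in the first set and 91.8, 64.3, 95.9 and 61.7 CPM in the second. PKP3 had 27.1 to 38.8 CPM in the first set and 68.0, 49.6, 62.9 and 49.7 CPM in the second. For both, all second set libraries were above all first set libraries, as for 8.68% of genes. KRT80 was 1.89-fold higher (log2 change 0.92, SE 0.13, edgeR adjusted p = 0.000390) and PKP3 1.78-fold higher (0.83, SE 0.11, edgeR adjusted p = 0.000369).

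KRT7 had 1.35 to 3.76 CPM in the first set and 7.5, 4.09, 5.64 and 3.72 CPM in the second. The ranges just overlap, since OE replicate 5 of the second set lies under OE replicate 1 of the first. Its level was 2.15-fold higher (log2 change 1.11, SE 0.27, edgeR adjusted p = 0.0121), but without EV replicate 4 the change was 0.81 and the adjusted p 0.0658. KRT86, which overlaps KRT7 on the same strand, was 3.53-fold higher in the second set and held 89 to 557 counts against 24 to 131 for KRT7. Its part in the KRT7 value was not tested. KRT8 had a log2 change of 0.37 (SE 0.15, edgeR adjusted p = 0.0978) and passed in 3 fits that left out a library: EV replicate 2 (0.42, edgeR adjusted p = 0.0379), EV replicate 5 (0.48, with 0.0442) and OE replicate 5 (0.51, with 0.0257). It also passed with no filter on low counts (0.37, edgeR adjusted p = 0.000617). KRT18 had 0.17 (SE 0.09) and passed without EV replicate 2 (0.25, adjusted p = 0.00634). JUP at 0.13 (SE 0.09) and ELF3 at 0.22 (SE 0.21) did not pass.

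**Figure D5:**
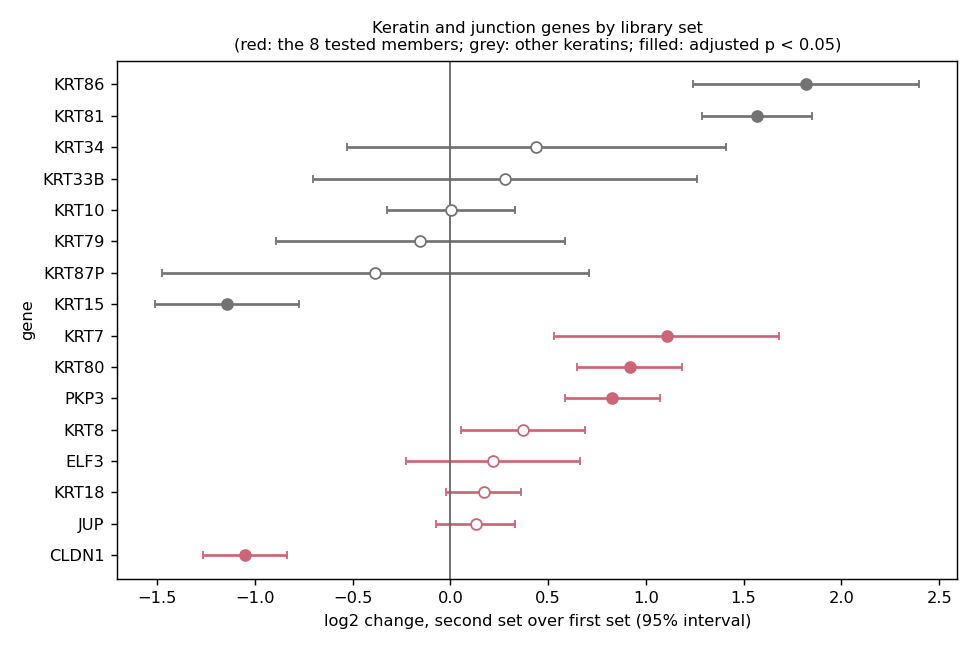
Log2 change of the second set over the first with its 95% interval (edgeR), the 8 tested genes in red and other tested keratins in grey, filled where the adjusted p was under 0.05. CLDN1 (-1.05) lies to the left, and KRT80 (0.92), PKP3 (0.83) and KRT7 (1.11) lie to the right of 0.

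The second set was not uniform for these genes. Replicate 4 was higher than replicate 5 in both groups for KRT7 (1.81-fold in EV, 1.5-fold in OE), KRT8 (1.70-fold and 1.65-fold), KRT80 (1.43-fold and 1.55-fold), PKP3 (1.37-fold and 1.26-fold), ELF3 (1.65-fold and 1.16-fold) and CLDN1 (1.28-fold and 1.42-fold). JUP was 1.29-fold higher in EV and 0.999 times in OE. KRT18 stayed level between them, at 0.935 and 0.990 times. The median over all tested genes was 1.002-fold in EV and 1-fold in OE. Each of these ratios compares 1 library with 1 other. The share of all genes higher in replicate 4 in both groups was not computed, so the pattern is not read as particular to these genes. The ratio of KRT18 to KRT8 in RPKM was 3.79 and 3.78 in EV and OE replicate 4, against 6.90 and 6.28 in replicate 5 and 4.96 to 6.22 in the first set. The ratio was lower in both libraries of replicate 4 than in the other 8. The ratio of JUP to PKP3, both of the desmosomal plaque, was 0.721 to 0.935 in the first set and 0.447 to 0.565 in the second, with no overlap.

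The mean profiles over the 10 libraries were compared by the root mean square difference of log2 CPM, each gene taken relative to its own mean, as a description. KRT80 and PKP3 were the closest members to each other, at 0.145. Their own profiles departed from a flat line by 0.489 and 0.441, more than they differed from each other. KRT7 (0.666 from flat) was nearest to PKP3 at 0.314. JUP was the nearest member of ELF3 (0.194), KRT18 (0.200), KRT8 (0.236) and CLDN1 (0.602). JUP and KRT18 themselves varied little (0.167 and 0.158 from flat). KRT18 and CLDN1 (0.544 from flat) lay closer to a flat line than to JUP, so neither shows a profile shared with JUP. ELF3 (0.343 from flat) and KRT8 (0.313 from flat) lay closer to JUP than to a flat line. CLDN1 was the farthest member for each of the other 7 tested genes. Among 9873 genes with a mean log2 CPM of at least 3, the nearest were FAM83H (0.118) and CRISPLD1 (0.136) for KRT80, LRRC61 (0.256) and CRISPLD1 (0.286) for KRT7, and RAB27B (0.144) and SLC16A6 (0.180) for CLDN1.

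Other genes of epithelial junctions, from lists chosen by function, gave 0 calls for OE over both sets: 8 other keratins of 61 listed, 6 of 15 desmosome and plakin genes, 15 of 26 tight junction genes, 9 of 14 adherens junction genes and 4 of 15 epithelial transcription and splicing genes were tested. Their median log2 changes were 0.04, -0.01, -0.01, 0.02 and -0.08. Of the desmosome and plakin genes, the cytoskeletal linker PLEC, at 144 RPKM, had 0.11 (SE 0.12), the desmosomal cadherin DSG2 -0.01 (SE 0.11), PERP -0.09 (SE 0.07) and PKP2 -0.18 (SE 0.20). Of the tight junction genes, the polarity gene PARD3 had -0.05 (SE 0.07), the scaffold TJP1 -0.04 (SE 0.10), and the claudins CLDN12, CLDN23 and CLDN16 -0.01 (SE 0.08), 0.26 (SE 0.25) and -0.44 (SE 0.45). PLEKHA7, which anchors the adherens junction to microtubules, had 0.32 (SE 0.14), and NECTIN2, a junction immunoglobulin, 0.13 (SE 0.06), both with an edgeR adjusted p of 0.847. VCL and CTNNA1, which tie that junction to actin, had 0.02 (SE 0.12) and -0.03 (SE 0.06). The epithelial transcription factors KLF4, KLF5 and FOXA1 had -0.11 (SE 0.13), -0.23 (SE 0.14) and -0.05 (SE 0.15). Of 9 mesenchymal genes 0 passed, and VIM had -0.17 (SE 0.11), FN1 0.02 (SE 0.13), SNAI2 -0.04 (SE 0.08), SNAI1 -0.35 (SE 0.18) and ZEB2 0.23 (SE 0.13). Of other keratins, KRT81 had 0.22 (SE 0.13), KRT10 0.19 (SE 0.15) and KRT15 0.12 (SE 0.16). The highest keratin RNA was that of the hair keratin gene KRT81, at 289 RPKM (mean of 10 libraries), above KRT18. It has near-identical neighbours in KRT86 and KRT87P, so reads may be split between them. KRT87P had a log2 change of 1.36 (SE 0.50, adjusted p = 0.847 by edgeR) for OE on 10 to 118 counts. It overlaps KRT7 on the opposite strand, and its part in the OE change of KRT7 was not tested.

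Between the sets, 2 of the 8 other keratins were higher in the second, KRT81 (2.96-fold, edgeR adjusted p = 1.22e-05) and KRT86 (3.53-fold, edgeR adjusted p = 0.000636), and KRT15, a keratin of basal cells, was lower (log2 change -1.14, SE 0.17). These counts stand beside 9.27% of all tested genes higher and 9.17% lower in the second set (18.4% in all), so lists with 1 call in 4 to 6 genes or 3 in 15 are not read as results. Of tight junction genes 3 of 15 were lower, OCLN, CLDN12 and CXADR, and 0 were higher. PERP, a desmosomal membrane protein, was lower by a log2 change of -0.29 (SE 0.07), the 1 call among 6 desmosome and plakin genes. GRHL1, an epithelial transcription factor, was lower (log2 change -0.89, SE 0.16), the 1 call among 4. Of 9 mesenchymal genes 4 were lower, among them fibronectin (FN1, log2 change -0.67, SE 0.13), and 1 was higher, the repressor SNAI1 (0.71, SE 0.18). The mesenchymal genes summed to 467 to 540 RPKM in the first set and 413 to 437 RPKM in the second, and their part in the set differences of the keratin and junction genes was not tested.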

How the data were processed

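RNA of 5 EV and 5 OE libraries of TPC-1 cells was sequenced. The submitters' processing notes name the build hg38 and, with no role or order, the tools HISAT2 2.0.5, fastp, featureCounts 1.5.0-p3, CASAVA 1.8 and DESeq2 1.20.0, while the annotation release is not given. Per the file headers, the authors' tables hold raw counts per gene and library, and a gene length in bases. Per the file headers, the second deposited table also gives a log2 fold change for 2 pairs of libraries. Per the file headers, a p-value and adjusted p-value stand beside it. Another 14 columns of deposited values per library (FPKM or normalized) were left out.

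Counts of both tables were joined by gene identifier. Depth was 15761474 to 18066559 counts per library. OE was compared with EV by edgeR 4.0.16 in R 4.3.3 (TMM scaling, default filterByExpr, estimated dispersion, quasi-likelihood test, Benjamini-Hochberg over all tested genes, adjusted p under 0.05), over both sets with the set as a term, in each set, and as an interaction, and the set term was tested. Each SE comes from the test. CPM and RPKM use TMM-scaled library sizes and the deposited length, and log2 CPM a prior count of 2. The code was tested on simulated data. The 10 genes and the wider lists were chosen with earlier results of these data known. From each wider list the named genes were the 3 with the highest mean RPKM and the 2 with the lowest p over both sets, and any further gene of these lists (KRT86, OCLN, CXADR, F11R and GRHL1 among them) was chosen after its values were seen. Nearest profiles were sought above a mean log2 CPM of 3. Alternatives were DESeq2 1.42.0, other size factors, no filter, a replicate block, leaving out each library and, added after seeing the data, loess offsets (span 0.5) for GC content and gene length, also without EV replicate 2. Promoter windows are RefSeq's, and overlaps come from GENCODE 29.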

Additional observations from a re-analysis of the deposited data

Results flagged for a closer look

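KRT8 in OE replicate 4 stood far above the other 4 OE libraries, at 162 CPM against 98.4 to 111 CPM, with a gap to its neighbour of 0.754 of the whole range on the log2 scale (limit 0.71 for 5 samples). Chance flags about 1 in 20 groups by this measure. EV replicate 4, at 158 CPM, was the highest EV library as well.

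For ELF3 and JUP, all OE libraries lay above the EV mean in the first set and below it in the second. The difference of the OE change between the sets was -0.926 for ELF3 and -0.342 for JUP on the log2 scale, and neither passed the test of that difference over all genes (edgeR, adjusted p = 0.9998 for both). In the second set the EV mean rests on 2 libraries that lie on either side of the OE ones.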

How the results depend on the processing

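For the 8 tested genes, 0 passed for OE over both sets, in the second set and in the difference between sets under every alternative run, and 0 in the first set except without EV replicate 2 (5), and with GC and length offsets without EV replicate 2 (1). In the set comparison 3 to 6 passed when single libraries were left out. Over all genes, leaving out the filter on low counts gave 23 calls over both sets, 90 in the first set (5 as reported), 12 in the second (0) and 28 for the difference (1). DESeq2 gave 39 in the first set and 8 for the difference. GC and length offsets gave 8 and 3, and 886 in the first set without EV replicate 2. Leaving out single libraries gave 0 to 1578 in the first set (1578 without EV replicate 2), 0 to 1 in the second, 0 to 7 for the difference and 1312 (without EV replicate 4) to 3850 (without EV replicate 2) between sets, with 1719 without OE replicate 4. The replicate number as a block gave 1 call in the first set, 71 in the second and 3 for the difference, and changed no call of the 8 genes. Deviations of same-numbered libraries correlated at -0.114, 0.00351 and 0.160 in numbers 1 to 3. In the second set the correlation was 0.314 for same numbers. With 2 libraries per group the deviations from the group mean are opposite, so the -0.314 for unlike numbers follows from it. The labels do not say what joins a pair, so the main fits did not take the numbers as pairs. The SEs of the second set thus include the difference between replicates 4 and 5. The median of the 8 in the second set was -0.041 with GC and length offsets and -0.30 to 0.19 when single libraries were left out, and that of the difference -0.54 to -0.10. The fits without a library have fewer samples, and in the second set they leave replicates 4 and 5 unevenly shared between EV and OE. The cause of these shifts was not tested.

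Signs turned for some estimates. With GC and length offsets KRT18 was -0.015 over both sets and -0.0081 in the first set, KRT80 -0.0085 in the second set, and JUP -0.023 between sets. When single libraries were left out, the log2 change over both sets ran from -0.018 (no EV replicate 3) to 0.13 for KRT18, from -0.0097 (no OE replicate 1) to 0.41 for KRT7 and from -0.0015 (no OE replicate 4) to 0.15 for CLDN1. In the first set KRT18 ran from -0.028 (no EV replicate 3) to 0.226 (no EV replicate 2). In the second set the ranges crossed 0 for all 8: -0.68 to 0.20 for KRT7, -0.35 to 0.49 for KRT8, -0.059 to 0.040 for KRT18, -0.34 to 0.297 for KRT80, -0.185 to 0.18 for JUP, -0.27 to 0.18 for PKP3, -0.54 to 0.19 for ELF3 and -0.27 to 0.237 for CLDN1. For the difference between sets they were -0.57 to 0.26 for KRT8, -0.247 to 0.018 for KRT18, -0.59 to 0.044 for KRT80 and -0.37 to 0.13 for CLDN1, and between sets -0.055 (no EV replicate 4) to 0.36 for ELF3. KRT19 and DSP, at up to 12 counts, and KRT7 and ELF3, at up to 131, are limited by depth.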

Other observations

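Without EV replicate 2, 2 of 9 tested other keratins rose with OE in the first set, KRT81 (log2 change 0.41, SE 0.08, edgeR adjusted p = 0.00148) and KRT15 (0.28, SE 0.09, adjusted p = 0.0357), and 0 fell, beside 6.07% of all genes that rose and 4.62% that fell in that fit (10.7% in all). KRT10, a keratin of the upper epidermis, had 0.42 (SE 0.15, adjusted p = 0.0602). Of 16 tested tight junction genes 1 rose, a share near that of all genes. It was F11R, which encodes the junction adhesion molecule JAM-A (0.35, SE 0.09, adjusted p = 0.0112), and 0 of 7 desmosome and plakin genes and 0 of 11 adherens junction genes passed. KLF5 (-0.52, SE 0.16, adjusted p = 0.0321) and KLF4 (-0.30, SE 0.10, adjusted p = 0.0494) fell, 2 of 4 tested epithelial transcription and splicing genes. Of 9 mesenchymal genes 1 fell, SNAI1 (-0.71, SE 0.19, adjusted p = 0.0175), a repressor of epithelial genes. PAX8, the thyroid transcription factor, rose (0.23, SE 0.06, adjusted p = 0.0141), and so did COL1A1, a fibroblast collagen (0.82, SE 0.26, adjusted p = 0.0413). With all 6 libraries of the first set, none of these genes passed (edgeR, 5 of 14340 genes called).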
